A study of Mus musculus with 2 samples.

Results

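The semaphorins, plexins, Slits, Robos, ephrins and Eph receptors form the main families of guidance cues and cue receptors, and their RNA was followed across the stromal cell types of the mouse colon and small intestine. The genes were taken by name alone: every gene listed in the deposited count tables of both tissues whose symbol begins with Sema, Plxn, Slit, Robo, Epha, Ephb, Efna or Efnb in its numbered form. This gave 51 of the 16098 genes listed for both tissues: 18 semaphorins, 8 plexins, 2 Slits, 3 Robos, 7 ephrins, 12 Eph receptors and 1 antisense RNA, Plxna4os1, which lies within Plxna4. Stromal cells, sorted alive as negative for the leukocyte antigen CD45 and the epithelial antigen EpCAM, came from healthy, untreated mice, with 1 droplet-based single-cell library for each tissue. Enzymatic digestion was longer for the colon. The strain, genotype, sex, age and number of the animals, and whether cells were pooled, are not given in the sources used here. With 1 library per tissue no difference has a replicate check, no test was made, and every interval covers counting error only.

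Guidance proteins were first known from growing axons, where a cue on or released by one cell turns, repels or halts the cell that carries the matching receptor. Semaphorins act through plexins, and the secreted class 3 semaphorins mostly also need a neuropilin as co-receptor. Secreted Slits bind Robo receptors, and membrane-bound ephrins bind Eph receptors on touching cells, with signals in both directions. In vessels the same families are used to separate arteries from veins and to shape lymphatics, and in the gut wall they are present in mesenchyme, muscle and endothelium.

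The authors' cell labels give 6 types with 50 cells or more in both tissues. CD81- fibroblasts (CD81- FBs) are the main fibroblasts of the mucosa, trophocytes are CD81+ fibroblasts that lie near the crypt base and deeper, and SEMFs are subepithelial myofibroblasts, PDGFRa-high fibroblasts beneath the epithelium. LECs and BECs are lymphatic and blood endothelial cells, and SMCs are smooth muscle cells. The colon library held 6018 cells and 40684070 unique molecular identifiers (UMIs, each marking 1 captured RNA molecule), and the small intestinal library 9359 cells and 58134526 UMIs. The numbers of cells in the colon and the small intestine were 3631 and 2823 for CD81- FBs, 875 and 1913 for trophocytes, 1105 and 1109 for SEMFs, 217 and 2498 for LECs, 53 and 524 for BECs, and 125 and 468 for SMCs, so colon BECs carried the least data. A total of 21 cell barcodes occurred in both libraries. Of the marker genes, all 6 were highest in their own label for LECs, SMCs and SEMFs in both libraries, 7 of 7 (colon) and 5 of 7 (small intestine) for BECs, 5 of 6 for trophocytes and 2 of 3 for CD81- FBs. The small intestinal SMC label also held CD81- FB markers at a summed 9905 CPM, against 9718 CPM in CD81- FBs themselves and 1810.2 CPM in colon SMCs. Adamdec1 made up 9211 CPM of the 9905 CPM, against 8191 CPM in CD81- FBs. Fn1 and Edil3 were lower under the SMC label (640 and 53.8 CPM) than in CD81- FBs (1259 and 268 CPM). These cells are therefore called by their label below. Summed pericyte markers were 675 CPM and 1346 CPM in SMCs, of which Rgs5 made up 500 CPM and 1188 CPM. They were 256 CPM and 1365 CPM in SEMFs and 179 CPM and 919 CPM in CD81- FBs, so they were not particular to the SMC label. Summed glial markers stayed between 1.41 CPM and 5.63 CPM in every type, and immune and epithelial markers at or below 14.8 CPM. Levels are in CPM, the UMIs of a gene in a type scaled to a fixed sum of all UMIs of that type. They count 3' ends and were compared for 1 gene between types rather than between genes. Fewer expressing cells and less RNA per cell cannot be told apart in such a sum.

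Of the 35 members with at least 10 CPM in a type of each library, 17 (48.6%) were highest in an endothelial type in both libraries, and 13 (37.1%) in a fibroblast type in both. Over all 10335 genes that met the same filter the shares were 30.9% and 27.3%. In the colon BECs were highest for 14 members, LECs and trophocytes for 6 each, CD81- FBs for 5, and SEMFs and SMCs for 2 each. In the small intestine LECs were highest for 11 members, trophocytes for 8, BECs for 7, SEMFs for 5, CD81- FBs for 3 and SMCs for 1. The interval of the highest over the next type crossed 0 for 12 of the 35 members in the colon, 7 of them the BEC genes Efnb2, Epha2, Ephb4, Robo4, Sema3f, Sema4c and Sema6b, and for 5 in the small intestine. For 21 of the 35 members (60%) both libraries gave the same highest type, where the background over all genes was 49%. A further 6 members reached 10 CPM in 1 library alone, and 10 stayed below it in every type. Families differed in where their summed level lay. The 18 semaphorins summed to 1209.9 CPM in colon LECs and 2213 CPM in small intestinal LECs, more than in any other type. The 8 plexins were highest in BECs, at 371 CPM and 866 CPM. The Slits summed to 1499.7 CPM and 2776 CPM in trophocytes, whereas the Robos peaked in CD81- FBs at 855 CPM and 1616 CPM.

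**Figure D1:**
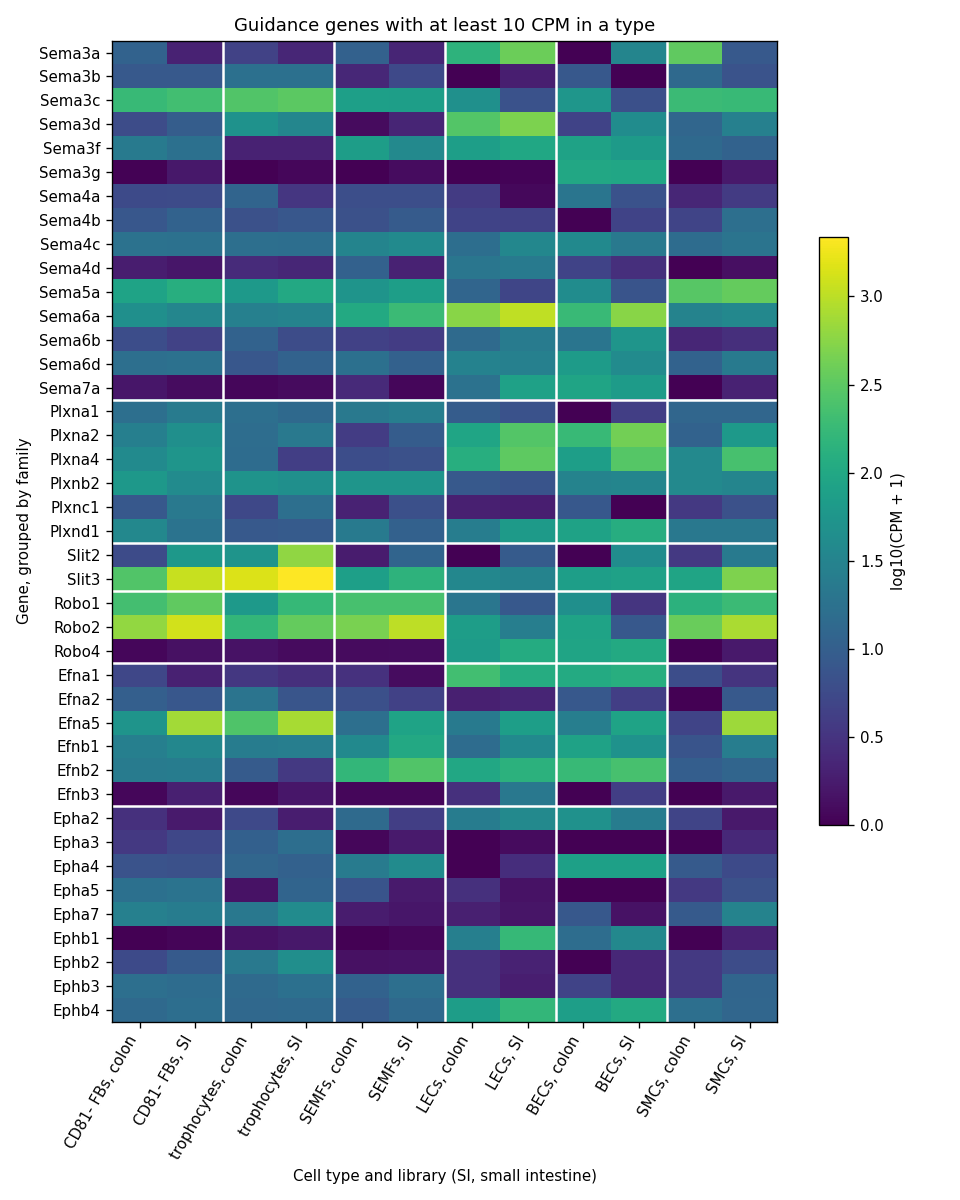
Level of each guidance gene with at least 10 CPM in a type, as log10(CPM + 1), for the 6 cell types with the colon and small intestinal libraries side by side; white lines separate families (rows) and cell types (columns). Slit3 is brightest in trophocytes, Robo2 in CD81- FBs and SEMFs, and Sema6a in LECs; 3' counts are best read along a row.

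The secreted class 3 semaphorins differed in their main sources. Sema3a, a neuropilin ligand that repels axons and acts on lymphatic valves, had 3.61 CPM in trophocytes, 10.3 CPM in CD81- FBs, 9.95 CPM in SEMFs, 329 CPM in SMCs, 0 CPM in BECs and 144 CPM in LECs of the colon. In the small intestine it had 1.26 CPM in trophocytes, 1.09 CPM in CD81- FBs, 1.23 CPM in SEMFs, 7.48 CPM in SMCs, 31.9 CPM in BECs and 389.6 CPM in LECs. LECs thus carried it in both tissues, while SMCs were high in the colon library, where 68.8% (Clopper-Pearson 95% interval 59.9 to 76.8%) of the SMC-labelled cells had a UMI against 2.14% (Clopper-Pearson 95% interval 1.03 to 3.89%) in the small intestine. The log2 ratio of colon to small intestine was 5.46 (95% interval 4.81 to 6.17) in SMCs, from 254 and 21 UMIs. It was also positive in CD81- FBs, at 3.24 (95% interval 2.61 to 3.94), and negative in LECs, at -1.44 (95% interval -1.68 to -1.21). Of the markers of interstitial cells of Cajal (Kit and Ano1), Kit had 0 CPM in the SMCs of both libraries. Ano1 had 40.1 CPM in colon SMCs and 4.63 CPM in small intestinal SMCs, with 52.8 CPM in colon SEMFs. The part of such cells in the SMC difference was not tested. In small intestinal BECs, 54 of the 70 Sema3a UMIs lay in the 81 cells that held UMIs of Efnb2 and of Ephb4 at once, and those cells also held lymphatic markers at a summed 3952 CPM, against 1265 CPM over all BECs.

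Sema3d followed the lymphatics in both libraries. It reached 276 CPM (95% interval 245 to 309) in colon LECs and 476 CPM (95% interval 464 to 489) in small intestinal LECs, with trophocytes at 49.2 CPM and 33.2 CPM and SEMFs at 0.269 CPM and 1.23 CPM. LECs lay above the next type by a log2 ratio of 2.49 (95% interval 2.25 to 2.72) in the colon and 3.55 (95% interval 3.25 to 3.87) in the small intestine. Sema3g was found almost only in blood endothelium: 100.1 CPM (95% interval 66.0 to 146) in colon BECs and 94.4 CPM (95% interval 82.0 to 108) in small intestinal BECs, and at most 0.713 CPM in any other type. The levels in the BECs of the tissues differed by less than their intervals. Of the 27 colon UMIs, 15 came from the 4 cells deposited as arterial endothelium and 12 from the 45 capillary cells. Sema3c, which acts through Nrp1, Nrp2 and plexins, was a mesenchymal cue, with 271 CPM in trophocytes, 179 CPM in CD81- FBs, 74.5 CPM in SEMFs, 186 CPM in SMCs, 55.6 CPM in BECs and 46.0 CPM in LECs of the colon. The small intestine had 309 CPM in trophocytes, 212 CPM in CD81- FBs, 73.4 CPM in SEMFs, 176 CPM in SMCs, 5.47 CPM in BECs and 5.98 CPM in LECs. Trophocytes were highest in both libraries.

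The colon values of Sema3c in LECs and BECs were 26.5% and 32.0% of its pooled fibroblast level, against 2.66% and 2.43% in the small intestine. Dcn, a matrix proteoglycan made by fibroblasts, stood in the same cells at 9.59% and 21.5% of its fibroblast level in the colon and at 2.55% and 1.15% in the small intestine. Fibroblast matrix RNA in endothelial cells thus moved with this difference, and its part was not tested. Sema3f, which signals through Nrp2, was spread over endothelium, SEMFs and CD81- FBs, with 81.6 CPM in colon BECs, 74.2 CPM in LECs and 71.3 CPM in SEMFs. Trophocytes had only 1.10 CPM and 1.06 CPM. Sema3b was highest in trophocytes, at 16.2 CPM and 16.3 CPM. Sema3e, the ligand that binds Plxnd1 without a neuropilin, stayed low, with a maximum of 7.07 CPM in colon trophocytes and 1.06 CPM in those of the small intestine.

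Among the membrane-bound semaphorins, Sema6a, a transmembrane ligand of Plxna2 and Plxna4, was highest in the endothelium of both tissues. Its levels in the colon were 27.2 CPM in trophocytes, 44.4 CPM in CD81- FBs, 106 CPM in SEMFs, 29.8 CPM in SMCs, 182 CPM in BECs and 558 CPM in LECs. Those in the small intestine were 29.9 CPM in trophocytes, 32.8 CPM in CD81- FBs, 185 CPM in SEMFs, 35.3 CPM in SMCs, 551 CPM in BECs and 1044 CPM in LECs. LECs, then BECs, then SEMFs formed the same order in both, and the LECs lay above the BECs by a log2 ratio of 1.62 (95% interval 1.20 to 2.07) in the colon and 0.92 (95% interval 0.84 to 1.01) in the small intestine. A Sema6a UMI was found in 87.6% (Clopper-Pearson 95% interval 82.4 to 91.6%) of colon LECs and 91.0% (Clopper-Pearson 95% interval 89.8 to 92.1%) of small intestinal LECs. Thinned to 1500 UMIs per cell, the shares were 57.6% and 72.8%, against 4.46% and 3.95% in trophocytes. Sema5a was instead highest in muscle, at 299 CPM (95% interval 262 to 340.3) in colon SMCs and 352 CPM (95% interval 330.1 to 374) in small intestinal SMCs. It had between 51.6 CPM and 124 CPM in the fibroblast types and at most 40.8 CPM in endothelium.

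Sema7a, a lipid-anchored semaphorin, was endothelial as well, but its highest type changed. BECs had 89.0 CPM (95% interval 57.0 to 132) and LECs 16.9 CPM (95% interval 10.0 to 26.7) in the colon, whereas small intestinal BECs had 67.1 CPM (95% interval 56.7 to 78.8) and LECs 81.3 CPM (95% interval 76.1 to 86.7). The LEC value was thus lower in the colon, with a log2 ratio of -2.27 (95% interval -3.03 to -1.60). Sema4d, a ligand of Plxnb1, was highest in LECs at 19.7 CPM and 23.0 CPM. Colon SEMFs had 9.95 CPM and small intestinal SEMFs 1.07 CPM, with a log2 ratio of 3.21 (95% interval 2.10 to 4.58). Sema6b and Sema6d had their highest values in BECs of both libraries (for Sema6b in the colon the log2 ratio to the next type was 0.50, 95% interval -1.33 to 2.05), at 18.5 CPM and 53.4 CPM for Sema6b and at 66.7 CPM and 39.2 CPM for Sema6d. Sema4c was low and even, between 14.2 CPM and 38.9 CPM over all types of both libraries. Sema4a and Sema4b peaked at 18.5 CPM in colon BECs and 15.3 CPM in small intestinal SMCs, and Sema4g and Sema6c stayed below 10 CPM in every type.

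**Figure D2:**
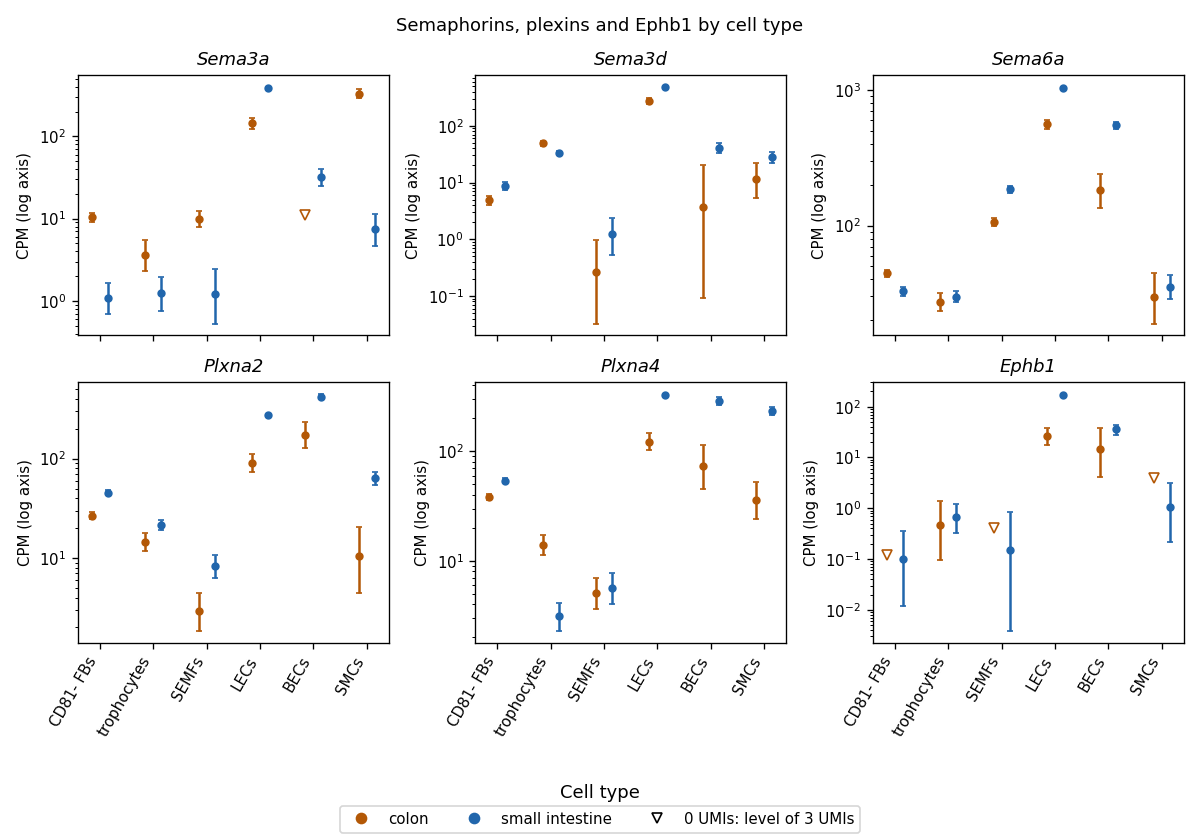
CPM on a log axis for Sema3a, Sema3d, Sema6a, Plxna2, Plxna4 and Ephb1 in the 6 cell types of the colon (orange) and small intestine (blue); bars are exact Poisson 95% intervals and open triangles mark types with 0 UMIs at the level of 3 UMIs. LECs lead Sema3d and Sema6a in both libraries, and Sema3a stands at 329 CPM in colon SMCs against 7.48 CPM in small intestinal SMCs.

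The plexins, the signalling receptors of the semaphorins, split into endothelial and mesenchymal genes. Plxna2 had 14.6 CPM in trophocytes, 26.7 CPM in CD81- FBs, 2.96 CPM in SEMFs, 10.4 CPM in SMCs, 174 CPM in BECs and 91.0 CPM in LECs of the colon, and 21.6 CPM in trophocytes, 45.6 CPM in CD81- FBs, 8.28 CPM in SEMFs, 63.8 CPM in SMCs, 421 CPM in BECs and 273 CPM in LECs of the small intestine. Plxna4 had 14.0 CPM in trophocytes, 38.0 CPM in CD81- FBs, 5.11 CPM in SEMFs, 36.3 CPM in SMCs, 74.2 CPM in BECs and 123 CPM in LECs of the colon, and 3.13 CPM in trophocytes, 54.2 CPM in CD81- FBs, 5.67 CPM in SEMFs, 234 CPM in SMCs, 289 CPM in BECs and 325 CPM in LECs of the small intestine. Both were lower in the colon in LECs and BECs: the log2 ratios were -1.59 (95% interval -1.89 to -1.29) and -1.27 (95% interval -1.73 to -0.85) for Plxna2 and -1.40 (95% interval -1.67 to -1.15) and -1.96 (95% interval -2.68 to -1.32) for Plxna4. The BEC ratio of Plxna2 lost its 2-fold size, at -0.96, when every cell was weighted equally. In trophocytes Plxna4 went the other way, with a log2 ratio of 2.16 (95% interval 1.63 to 2.70). The antisense RNA Plxna4os1 was seen in LECs at 7.51 CPM and 6.60 CPM and stayed below 10 CPM in every type. How strand was used in the counting is not given in the sources used here, so reads of Plxna4 and its antisense RNA may not be separable.

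Plxnd1, the receptor of Sema3e and a co-receptor partner of neuropilins, was highest in BECs, at 81.6 CPM (95% interval 51.1 to 124) in the colon and 120.4 CPM (95% interval 106 to 136) in the small intestine. In SEMFs it was higher in the colon (22.9 CPM against 9.96 CPM, log2 ratio 1.20, 95% interval 0.78 to 1.63) and in LECs lower (25.3 CPM against 65.3 CPM, log2 ratio -1.37, 95% interval -1.98 to -0.81). The LEC ratio was -0.11 (95% interval -0.96 to 0.62), from 15 colon UMIs, when only the colon cells with UMIs of Y-linked genes but none of Xist were used. Plxnb2, the common receptor of class 4 semaphorins, was highest in fibroblasts: 59.7 CPM, 50.6 CPM and 53.7 CPM in colon CD81- FBs, trophocytes and SEMFs, 39.6 CPM, 44.8 CPM and 53.7 CPM in those of the small intestine, with 29.7 CPM and 31.9 CPM in BECs and 7.51 CPM and 6.42 CPM in LECs. Plxna1 was highest in SEMFs of both libraries, at 21.6 CPM and 25.6 CPM. In the small intestine SEMFs and CD81- FBs did not differ beyond counting error for it (log2 0.13, 95% interval -0.13 to 0.39). Plxnc1, the receptor of Sema7a, was lower in the colon in CD81- FBs (7.41 CPM against 21.2 CPM) and trophocytes (4.24 CPM against 15.4 CPM). Plxna3 and Plxnb1 stayed below 10 CPM in every type.

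The Slits were trophocyte cues with a large difference between the tissues. Slit2 had 52.5 CPM in trophocytes, 4.74 CPM in CD81- FBs, 0.807 CPM in SEMFs, 2.59 CPM in SMCs, 0 CPM in BECs and 0 CPM in LECs of the colon, and 598 CPM in trophocytes, 59.3 CPM in CD81- FBs, 10.7 CPM in SEMFs, 22.5 CPM in SMCs, 41.1 CPM in BECs and 8.21 CPM in LECs of the small intestine. Trophocytes were highest in both libraries, and every type held less in the colon. A Slit2 UMI was present in 15.4% (Clopper-Pearson 95% interval 13.1 to 18.0%) of colon trophocytes and 82.5% (Clopper-Pearson 95% interval 80.8 to 84.2%) of small intestinal trophocytes, at medians of 7186 and 7807 UMIs per cell. After thinning to 1500 UMIs per cell the shares were 6.06% and 48.4%, and in SEMFs they were 0.0905% and 0.638%. The log2 ratio of colon to small intestine was -3.51 (95% interval -3.67 to -3.35) in trophocytes, -3.65 (95% interval -3.93 to -3.37) in CD81- FBs and -3.73 (95% interval -5.23 to -2.54) in SEMFs. In colon LECs and BECs no UMI of Slit2 was seen, and a floor of 3 UMIs put these types at least 2.92-fold and 3.69-fold lower than in the small intestine. Both bounds fell under 2-fold, to log2 -0.23 and -0.70, without the 5% of cells with the most UMIs.

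Slit3 had 1447 CPM in trophocytes, 268 CPM in CD81- FBs, 75.2 CPM in SEMFs, 89.3 CPM in SMCs, 74.2 CPM in BECs and 33.8 CPM in LECs of the colon, and 2178 CPM in trophocytes, 1129.8 CPM in CD81- FBs, 143 CPM in SEMFs, 489 CPM in SMCs, 79.4 CPM in BECs and 30.0 CPM in LECs of the small intestine. Trophocytes led again, by a log2 ratio over the next type of 2.43 (95% interval 2.39 to 2.48) in the colon and 0.95 (95% interval 0.92 to 0.97) in the small intestine. The tissue difference was smaller than for Slit2 and depended on the fibroblast type: the log2 ratio was -2.07 (95% interval -2.11 to -2.03) in CD81- FBs, -0.92 (95% interval -1.08 to -0.77) in SEMFs and -0.59 (95% interval -0.62 to -0.56) in trophocytes. Over pooled fibroblasts it was -1.67 (95% interval -1.69 to -1.64), and -0.95 with the 3 fibroblast types weighted equally. Pooled Slit2 stood at -4.37 (95% interval -4.51 to -4.24) and, with equal weights, at -3.53. In small intestinal BECs, Slit2 and Slit3 were at 16.7% and 5.87% of their fibroblast levels, where Dcn was at 1.15%. In colon BECs Slit3 was at 17.4%, beside Dcn at 21.5%.

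The sequences around the RefSeq start sites of Slit2 and Slit3, which were both lower in colon fibroblasts, and of Robo4 and Sema3g, which were both endothelial, were read from the RefSeq table, 5′ to 3′ (build GRCm38.p6, plus strand, 250 bases before to 50 after the start). They lie at chr5:47982905-47983204, chr11:35121206-35121505, chr9:37401722-37402021 and chr14:31217623-31217922. Capitals mark matches, on either strand, to TATAAA, the core of a TATA box, and to GGGCGG, a GC box, which reads CCGCCC on the other strand. CCGGAA, a longer form of the ETS core GGAA, was searched as well and was in none of the 4. The core GGAA itself was not searched.
Slit2: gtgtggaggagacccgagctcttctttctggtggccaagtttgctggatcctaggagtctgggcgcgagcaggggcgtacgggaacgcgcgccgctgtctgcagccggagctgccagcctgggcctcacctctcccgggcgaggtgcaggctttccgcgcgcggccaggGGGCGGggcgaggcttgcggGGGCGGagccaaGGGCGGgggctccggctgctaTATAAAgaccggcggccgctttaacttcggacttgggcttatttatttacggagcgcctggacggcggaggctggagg
Slit3: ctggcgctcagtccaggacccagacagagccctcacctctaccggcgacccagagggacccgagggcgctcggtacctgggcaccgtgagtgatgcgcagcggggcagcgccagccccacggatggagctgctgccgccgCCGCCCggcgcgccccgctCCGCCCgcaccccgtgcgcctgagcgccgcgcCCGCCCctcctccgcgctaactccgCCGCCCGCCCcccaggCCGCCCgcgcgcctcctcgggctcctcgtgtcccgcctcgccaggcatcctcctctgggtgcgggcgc
Robo4: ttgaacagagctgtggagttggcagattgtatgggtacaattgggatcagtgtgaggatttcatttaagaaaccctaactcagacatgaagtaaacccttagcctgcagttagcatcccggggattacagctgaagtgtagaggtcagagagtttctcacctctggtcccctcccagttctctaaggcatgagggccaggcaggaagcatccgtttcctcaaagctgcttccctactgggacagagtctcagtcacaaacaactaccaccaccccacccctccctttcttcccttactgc
Sema3g: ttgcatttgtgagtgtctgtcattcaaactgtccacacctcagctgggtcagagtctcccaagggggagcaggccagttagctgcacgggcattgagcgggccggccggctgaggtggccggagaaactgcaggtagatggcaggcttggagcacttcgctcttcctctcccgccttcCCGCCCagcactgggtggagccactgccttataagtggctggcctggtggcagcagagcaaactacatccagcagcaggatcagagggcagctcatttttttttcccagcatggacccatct
The Slit2 window held 1 TATAAA and 3 GGGCGG and was 68.0% G or C, and the Slit3 window held 6 GGGCGG, of which a pair overlaps, at 78.3% G or C. The Robo4 window held none of the motifs at 50.3% G or C, and the Sema3g window held 1 GGGCGG at 58.7%. Over the 32851 windows of the same length in the RefSeq table, 13.6% held TATAAA, 35.7% GGGCGG and 14.9% CCGGAA, and the median was 52.7% G or C. The matches are a description of these letters, and windows were found for 44 of the 51 members.

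The Slit receptors were highest in other cell types than the Slits. Robo2 had 163 CPM in trophocytes, 635 CPM in CD81- FBs, 459 CPM in SEMFs, 381 CPM in SMCs, 85.3 CPM in BECs and 71.3 CPM in LECs of the colon, and 351 CPM in trophocytes, 1286 CPM in CD81- FBs, 1022 CPM in SEMFs, 809.6 CPM in SMCs, 7.30 CPM in BECs and 26.1 CPM in LECs of the small intestine. CD81- FBs were highest in both, above SEMFs by a log2 ratio of 0.47 (95% interval 0.42 to 0.52) in the colon and 0.33 (95% interval 0.29 to 0.37) in the small intestine, and trophocytes held the least of the 3 fibroblast types. Colon levels were higher in LECs and in BECs, where the 23 colon UMIs lay in 5 cells. They were lower in the 3 fibroblast types and in SMCs. The log2 ratios there were -1.02 (95% interval -1.05 to -0.99) in CD81- FBs, -1.11 (95% interval -1.21 to -1.01) in trophocytes, -1.16 (95% interval -1.22 to -1.10) in SEMFs and -1.09 (95% interval -1.27 to -0.91) in SMCs. These sit at the 2-fold limit: relative to the median gene of each type they were -0.81 in CD81- FBs, -0.83 in SEMFs and -0.79 in SMCs, and in trophocytes the mean over cells was just under 2-fold. Robo1 had 63.4 CPM in trophocytes, 220.1 CPM in CD81- FBs, 229 CPM in SEMFs, 139 CPM in SMCs, 44.5 CPM in BECs and 19.7 CPM in LECs of the colon, and 171 CPM in trophocytes, 329.7 CPM in CD81- FBs, 233 CPM in SEMFs, 188 CPM in SMCs, 2.28 CPM in BECs and 7.23 CPM in LECs of the small intestine. In the colon SEMFs and CD81- FBs did not differ beyond counting error (log2 ratio 0.06, 95% interval -0.02 to 0.14). Robo1 was lower in colon trophocytes, by a log2 ratio of -1.43 (95% interval -1.58 to -1.28), and nearly level in SEMFs at -0.03 (95% interval -0.13 to 0.07).

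In LECs, Robo1 and Robo2 were higher in the colon library, at log2 ratios of 1.45 (95% interval 0.68 to 2.15) and 1.45 (95% interval 1.07 to 1.82). They stood there at 10.1% and 13.6% of their fibroblast levels, and the fibroblast matrix genes Dcn, Lum and Col1a2 at 9.59%, 9.47% and 10.6%. In small intestinal LECs the receptors were at 2.81% and 2.87% and the matrix genes at 2.55%, 2.67% and 2.36%. With only the colon cells that held UMIs of Y-linked genes but none of Xist, 53 LECs were left, with 1 UMI of Robo1 and 9 of Robo2, and the ratios were -0.85 (95% interval -6.17 to 1.67) and 0.47 (95% interval -0.67 to 1.42), which leaves the direction of both undetermined in those cells. Robo4, the endothelial Robo, had the opposite pattern to its relatives: 66.6 CPM (95% interval 52.0 to 84.1) and 112 CPM (95% interval 106 to 119) in LECs, 89.0 CPM (95% interval 57.0 to 132) and 104 CPM (95% interval 90.9 to 118) in BECs, and no more than 0.713 CPM in any other type. LECs and BECs did not differ beyond counting error for Robo4 in the colon (log2 0.42, 95% interval -0.32 to 1.10) or the small intestine (log2 0.11, 95% interval -0.09 to 0.32). A Robo4 UMI was in 26.7% (Clopper-Pearson 95% interval 21.0 to 33.1%) of colon LECs and 37.8% (Clopper-Pearson 95% interval 35.9 to 39.7%) of small intestinal LECs (medians of 4545 and 4117.5 UMIs per cell), against 0.110% and 0.213% of CD81- FBs (6697 and 6977 UMIs).

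**Figure D3:**
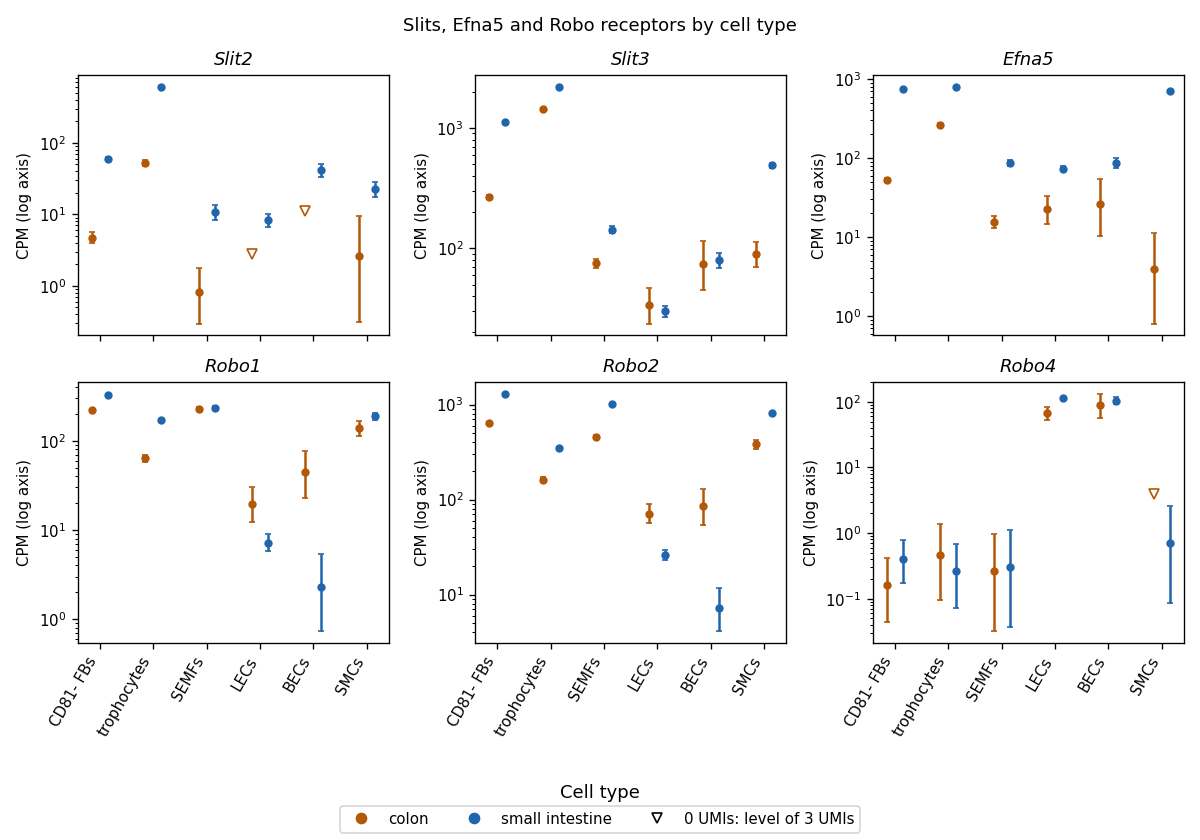
CPM on a log axis for Slit2, Slit3, Efna5, Robo1, Robo2 and Robo4 in the 6 cell types of the colon (orange) and small intestine (blue); bars are exact Poisson 95% intervals and open triangles mark types with 0 UMIs at the level of 3 UMIs. Slit2 in trophocytes is at 52.5 CPM (colon) and 598 CPM (small intestine), and Robo4 rises above 10 CPM in LECs and BECs alone.

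Source and receptor were set apart by level rather than by cell. Cells with UMIs of Slit3 and Robo2 at once made up 52.1% (95% interval 50.4 to 53.7%) of colon CD81- FBs and 78.9% (95% interval 77.3 to 80.4%) of those of the small intestine. In trophocytes the shares were 41.1% (95% interval 37.9 to 44.5%) and 72.9% (95% interval 70.8 to 74.9%), and in SEMFs 19.8% (95% interval 17.5 to 22.3%) and 22.2% (95% interval 19.8 to 24.7%). LECs, which lead neither gene, had 5.53% (95% interval 2.89 to 9.46%) and 1.00% (95% interval 0.649 to 1.47%). For Slit2 and Robo2, 7.77% (95% interval 6.09 to 9.75%) of colon and 62.9% (95% interval 60.7 to 65.1%) of small intestinal trophocytes held both. These shares depend on depth per cell, and medians per type lay between 3651.5 and 7807 UMIs.

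Among the A-type ephrins, which are anchored to the membrane by lipid, Efna5 differed between the tissues in every type. It had 265 CPM in trophocytes, 52.9 CPM in CD81- FBs, 15.6 CPM in SEMFs, 3.88 CPM in SMCs, 26.0 CPM in BECs and 22.5 CPM in LECs of the colon, and 786 CPM in trophocytes, 752 CPM in CD81- FBs, 86.5 CPM in SEMFs, 696 CPM in SMCs, 86.7 CPM in BECs and 73.4 CPM in LECs of the small intestine. All 6 types were lower in the colon by 2-fold or more. The log2 ratio was -3.83 (95% interval -3.91 to -3.75) in CD81- FBs, -1.57 (95% interval -1.64 to -1.49) in trophocytes and -2.47 (95% interval -2.77 to -2.18) in SEMFs. In SMCs it was -7.49 (95% interval -9.76 to -5.94), from 3 colon UMIs against 1953 in the small intestine. A UMI of Efna5 was in 1.60% (Clopper-Pearson 95% interval 0.194 to 5.66%) of colon SMCs and 81.6% (Clopper-Pearson 95% interval 77.8 to 85.0%) of small intestinal SMCs. The small intestinal label also held CD81- FB markers at a summed 9905 CPM, of which Adamdec1 made up 9211 CPM. The part of these markers in the Efna5 ratio was not tested. Trophocytes were highest in both libraries, but in the small intestine CD81- FBs came close, with a log2 ratio of 0.06 (95% interval 0.03 to 0.10) between them.

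Efna1, a ligand of Epha2, was endothelial: 210.3 CPM (95% interval 184 to 239.7) and 117 CPM (95% interval 110.4 to 123) in LECs, 108 CPM (95% interval 72.0 to 154) and 122 CPM (95% interval 108 to 138) in BECs, and at most 5.18 CPM elsewhere. In the small intestine LECs and BECs did not differ beyond counting error, with a log2 ratio of 0.07 (95% interval -0.13 to 0.26). Efna2 was highest in colon trophocytes at 18.4 CPM, against 6.52 CPM in those of the small intestine (log2 ratio 1.49, 95% interval 1.10 to 1.90), and Efna4 stayed below 10 CPM. The B-type ephrins are transmembrane proteins. Efnb2, the ephrin of arterial endothelium, had 8.17 CPM in trophocytes, 23.6 CPM in CD81- FBs, 161 CPM in SEMFs, 9.06 CPM in SMCs, 174 CPM in BECs and 98.6 CPM in LECs of the colon, and 2.59 CPM in trophocytes, 24.1 CPM in CD81- FBs, 273 CPM in SEMFs, 11.4 CPM in SMCs, 229 CPM in BECs and 139 CPM in LECs of the small intestine. BECs, LECs and SEMFs therefore shared it. BECs and SEMFs did not differ beyond counting error in the colon (log2 0.11, 95% interval -0.34 to 0.53), and SEMFs lay above BECs in the small intestine (log2 0.25, 95% interval 0.11 to 0.40). Efnb1 was lower in colon SEMFs, at 37.0 CPM against 101 CPM (log2 ratio -1.45, 95% interval -1.66 to -1.25). Efnb3 was seen mainly in small intestinal LECs, at 21.0 CPM; the 2 UMIs of colon LECs gave 1.88 CPM and a log2 ratio of -3.48 (95% interval -6.54 to -1.61).

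Of the Eph receptors, Ephb4, the receptor of Efnb2 known from veins and lymphatics, had 70.4 CPM (95% interval 55.4 to 88.2) and 159 CPM (95% interval 152 to 167) in LECs and 74.2 CPM (95% interval 45.3 to 115) and 104 CPM (95% interval 90.9 to 118) in BECs. Other types held between 8.07 CPM and 15.5 CPM. Ephb1 was highest in LECs, with 26.3 CPM (95% interval 17.5 to 38.0) in colon LECs and 172 CPM (95% interval 164 to 179.9) in small intestinal LECs, 14.8 CPM and 35.6 CPM in BECs, and at most 1.07 CPM in any other type. In the colon its LECs and BECs did not differ beyond counting error (log2 0.83, 95% interval -0.69 to 2.80). The LEC ratio of Ephb1, colon to small intestine, was log2 -2.71 (95% interval -3.30 to -2.17). Epha4 marked BECs, at 77.9 CPM (95% interval 48.2 to 119) and 78.0 CPM (95% interval 66.7 to 90.6), and then SEMFs, at 23.4 CPM and 40.2 CPM. LECs held 0 Epha4 UMIs in 217 colon cells, which allows up to 2.82 CPM, and 1.70 CPM in the small intestine. Epha2 was endothelial at 48.2 CPM and 24.2 CPM in BECs and 24.4 CPM and 36.5 CPM in LECs, and higher in colon than small intestinal SEMFs (13.2 CPM against 3.22 CPM, log2 ratio 2.03, 95% interval 1.34 to 2.79).

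The remaining Eph receptors were fibroblast genes at low levels. Ephb2 was highest in trophocytes, at 21.7 CPM and 43.9 CPM. Its pooled fibroblast ratio was log2 -1.57 (95% interval -1.78 to -1.37), and -0.97 with the fibroblast types weighted equally. Epha3 was also highest in trophocytes, at 9.58 CPM and 15.0 CPM. Epha7 had 27.7 CPM in CD81- FBs and 20.9 CPM in trophocytes of the colon, and 23.9 CPM and 39.5 CPM in those of the small intestine. Epha5 split by type: colon trophocytes held 3 UMIs (0.471 CPM) against 165 (11.0 CPM) in small intestinal trophocytes, with a log2 ratio of -4.54. SEMFs held 47 UMIs (6.32 CPM) and 5 UMIs (0.767 CPM), with a log2 ratio of 3.04. CD81- FBs were level, at 16.1 CPM and 17.8 CPM. Ephb3 lay between 10.1 CPM and 16.0 CPM in all fibroblast types, and Epha1, Epha6 and Ephb6 stayed below 10 CPM in every type.

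Efnb2 and Ephb4 divide arteries from veins, so the 524 small intestinal BECs, which carry 1 label, were split by them. UMIs of Efnb2 alone were in 164 cells, of Ephb4 alone in 88, of both in 81 and of neither in 191, with medians of 3435.5, 4362.5, 4844 and 3119 UMIs per cell. All 7 arterial genes on a fixed list were higher in the cells with Efnb2 alone and all 5 venous genes in the cells with Ephb4 alone. Gja5, an arterial gap junction gene, had 104 CPM (95% interval 80.7 to 133) and 2.40 CPM (95% interval 0.0607 to 13.4), and Sema3g had 168 CPM (95% interval 137 to 203) and 9.59 CPM (95% interval 2.61 to 24.5). Selp, the venous adhesion molecule P-selectin, had 1518 CPM (95% interval 1423 to 1617) and 3974 CPM (95% interval 3785 to 4170.3), and Ackr1, a chemokine receptor of venules, 316 CPM (95% interval 274 to 363) and 813 CPM (95% interval 728 to 904). In the cells with neither gene, Gja5 had 16.5 CPM, Sema3g 60.1 CPM, Selp 3217 CPM and Ackr1 700 CPM. In those with both, the levels were 50.3, 119.5, 1872 and 237 CPM. Ackr1 with both thus lay below its level with Efnb2 alone, so it did not follow Ephb4 in every set. How many of all genes differed between the sets was not counted.

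Among other guidance genes, chosen after their values were seen, Efna5 had 161 CPM (95% interval 131 to 196) in the cells with Efnb2 alone and 2.40 CPM (95% interval 0.0607 to 13.4) in those with Ephb4 alone. Dcn had 337 and 98.3 CPM in the same cells, and its part in the Efna5 difference was not tested. Epha4 had 114 CPM (95% interval 89.1 to 143) and 55.1 CPM (95% interval 34.9 to 82.7), and Sema7a had 85.4 CPM (95% interval 64.1 to 111) and 36.0 CPM (95% interval 20.1 to 59.3). Plxna2 was level, at 428 CPM and 429 CPM, as was Robo4 at 109 CPM and 98.3 CPM. Summed lymphatic markers were 411 CPM in the cells with Efnb2 alone and 916 CPM in those with Ephb4 alone, so they moved with the venous genes, and their part was not tested. The split rests on the absence of a UMI as well as its presence, and the cells differ in depth. In the colon, with 53 BECs, no split was made.

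**Figure D4:**
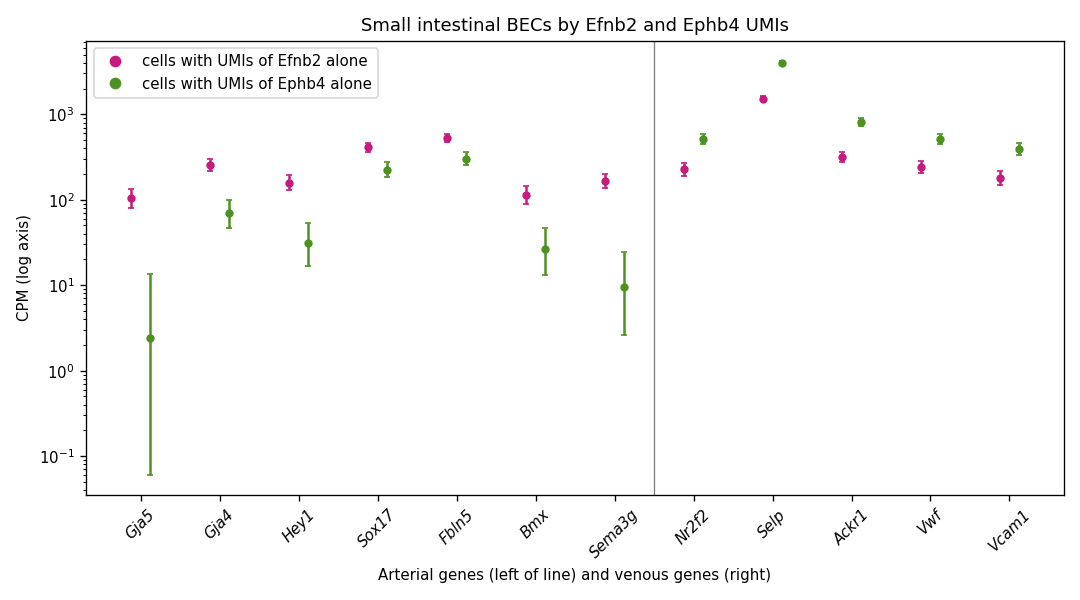
CPM on a log axis, with exact Poisson 95% intervals, of 7 arterial and 5 venous genes in small intestinal BECs that held UMIs of Efnb2 alone (164 cells, magenta) or of Ephb4 alone (88 cells, green). Every arterial gene is higher in the first and every venous gene in the second set of cells, with the widest gap for Gja5 (104 CPM and 2.40 CPM).

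Across the tissues, a member counted as different at 2-fold or more where the libraries summed to 50 UMIs or more. In CD81- FBs, 4 of 40 members were higher and 5 lower in the colon, where 7.98% and 11.1% of all genes were. In trophocytes, 6 of 35 were higher and 8 lower, against 5.63% and 8.82% of all genes. In SEMFs, 5 of 29 were higher and 5 lower, against 6.51% and 15.8%. Pooled fibroblasts gave 7 higher and 6 lower of 44, against 8.36% and 9.99%. In LECs, 4 of 30 were higher and 12 lower in the colon, against 4.82% and 15.8% of all genes. In BECs, 0 of 24 were higher and 9 lower, against 4.65% and 19.1%, and in SMCs 1 of 18 was higher and 10 lower, against 3.58% and 18.6%. The median log2 ratio of members was -1.10 in SMCs (all genes -0.29), -0.77 in LECs (-0.25), -0.31 in BECs (-0.23), -0.24 in SEMFs (-0.33), -0.19 in trophocytes (-0.11) and -0.10 in CD81- FBs (-0.21). Shares near those of all genes, as in CD81- FBs, say nothing particular of the families.

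Of the genes higher in colon fibroblasts, those in CD81- FBs were Sema3a, Efna1 (4.21 CPM against 1.04 CPM), Epha2 and Epha1, and in trophocytes Sema3e, Sema4a, Plxna4, Efnb2, Efna2 and Sema6b. In SEMFs they were Sema4d, Epha5, Sema3a, Epha2 and Plxnd1. Slit2, Efna5 and Robo2 were lower in all 3 fibroblast types of the colon, and Slit3 in CD81- FBs. Plxnc1 was lower in CD81- FBs and trophocytes, Robo1, Epha5, Ephb2 and Plxna3 in trophocytes, and Efnb1 and Plxna2 in SEMFs. In LECs the genes lower in the colon were Efnb3, Ephb1, Sema7a, Efna5, Plxna2, Slit2, Sema3a, Plxna4, Efnb1, Plxnd1, Sema4c and Ephb4, with log2 ratios from -3.48 to -1.18. Sema3c, Sema5a, Robo2 and Robo1, all genes of fibroblasts or muscle, were higher in colon LECs, with log2 ratios of 2.94, 1.49, 1.45 and 1.45. Some of these calls lay near the limit and ended under another setting: Sema4c and Plxna3 at -0.30 (LECs, 7 colon UMIs) and -0.43 (trophocytes, 9 colon UMIs) with colon cells that had Y-linked UMIs alone, Ephb4 in LECs at -0.93 and Ephb2 in trophocytes at -0.91 relative to the median gene, and Epha1 in CD81- FBs and Sema6b in trophocytes at 0.91 and 0.85 without the 5% of cells with the most UMIs.

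**Figure D5:**
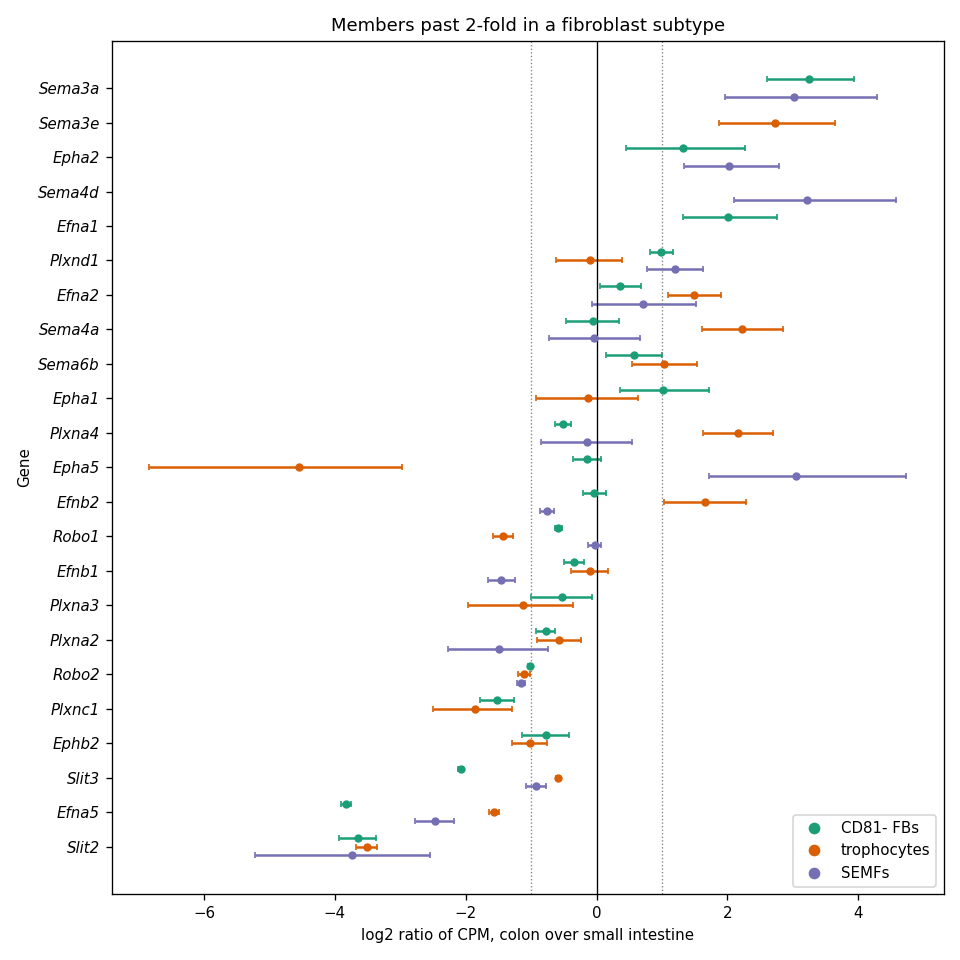
Log2 ratio of CPM, colon over small intestine, with 95% intervals from counting error, for the guidance genes past 2-fold in at least 1 fibroblast type; dotted lines mark 2-fold. Slit2 lies between -3.73 and -3.51 in the 3 types, Slit3 spreads from -2.07 to -0.59, and Epha5 stands at 3.04 in SEMFs and -4.54 in trophocytes.

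BECs and SMCs rest on fewer colon cells. In BECs the genes lower in the colon were Sema3d, Plxna4, Slit2, Efna5, Sema6a, Sema6b, Sema3a, Plxna2 and Ephb1, with colon counts from 0 to 49 UMIs. Sema6a had the most of these, 49 against 1207 UMIs and a log2 ratio of -1.60 (95% interval -2.04 to -1.19). The interval of Ephb1 reached across 0, at log2 -1.26 (95% interval -3.17 to 0.15), and the ratio was -0.18 without the 5% of cells with the most UMIs. The Sema3d ratio of -3.45 (95% interval -8.77 to -0.94) rested on 1 colon UMI. Without the 5% of cells with the most UMIs, small intestinal BECs kept 17 of 89 Sema3d UMIs and 14 of 70 Sema3a UMIs. The Sema3d ratio was then -0.94 (95% interval -6.33 to 1.73). Sema3a, at 0 in colon BECs, had only an upper limit, at log2 1.41, so its direction was undetermined. Summed lymphatic markers stood at 29.7 CPM in colon BECs and 1265 CPM in small intestinal BECs, so they moved with these calls, and Sema3d, Sema3a, Sema6a, Ephb1 and Plxna4 were highest in LECs of the small intestine. Their part in the BEC differences was not tested. In SMCs, Efna5, Slit2, Plxna4, Plxna2, Slit3, Epha7, Efnb1, Sema3d, Sema6d and Robo2 were lower in the colon. Among them Plxna4 had 28 and 657 UMIs and a log2 ratio of -2.69 (95% interval -3.29 to -2.15). With colon cells that had Y-linked UMIs alone, Epha7 and Sema6d were at -0.87 and -0.18 on 5 and 6 colon UMIs, and Sema3d was at -0.96 relative to the median gene. Slit3, a fibroblast cue, had 89.3 CPM and 489 CPM in SMCs, and Dcn was at 17.6% and 45.1% of its fibroblast level there.

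Ligands and receptors were set against each other for 30 textbook pairs, of which 22 had both genes at 10 CPM or more in a type of each library. In 16 of the 22 the type highest for the ligand differed from that of the receptor in both libraries. The share over pairs of unrelated genes was not computed, and several genes recur across the pairs. The highest type was also not resolved beyond counting error for 12 of the 35 members in the colon. Counts of pairs therefore say nothing particular of ligands and receptors. The same type led both genes in 3 pairs in the colon and 5 in the small intestine, and in both libraries in 2: Sema3g with Plxnd1 in BECs and Sema6a with Plxna4 in LECs. Slit2 and Slit3 with Robo2 paired trophocytes with CD81- FBs in both libraries. Efna5 with Epha4 paired trophocytes with BECs, Sema3c with Plxnd1 trophocytes with BECs, Sema3d with Plxnd1 LECs with BECs, and Sema6a with Plxna2 LECs with BECs, again in both libraries. Efnb2 and Ephb4 were both highest in BECs in the colon, and in SEMFs and LECs in the small intestine. Neither colon order was beyond counting error. The log2 ratio of BECs to SEMFs was 0.11 (95% interval -0.34 to 0.53) for Efnb2. That of BECs to LECs was 0.08 (95% interval -0.72 to 0.80) for Ephb4. Such pairs set RNA levels side by side and carry no evidence of contact or binding. In LECs, 35.0% (95% interval 28.7 to 41.8%) of colon cells and 55.3% (95% interval 53.3 to 57.3%) of small intestinal cells held UMIs of Sema6a and Plxna4 at once, and in BECs 17.0% (95% interval 8.07 to 29.8%) and 43.3% (95% interval 39.0 to 47.7%). In trophocytes these shares were 1.49% (95% interval 0.793 to 2.53%) and 0.366% (95% interval 0.147 to 0.752%).

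The other genes of the pathways, 34 of 36 on a fixed list of co-receptors, netrins and signal transducers being listed for both tissues, were read in the same way. Of 29 with at least 10 CPM in a type of each library, 20 (69%) had the same highest type in both and 12 (41.4%) were endothelial in both, where the shares over all genes were 49% and 30.9%. The neuropilins divided the endothelium. Nrp1, the co-receptor of Sema3a, had 664 CPM and 443 CPM in BECs against 28.2 CPM and 6.33 CPM in LECs. Nrp2, the co-receptor of Sema3c and Sema3f, had 527 CPM and 1499 CPM in LECs against 197 CPM and 379 CPM in BECs. Netrin 1, Ntn1, was highest in LECs at 709.6 CPM and 1254 CPM. In pooled fibroblasts 3 of 32 of these genes were higher in the colon (Nrp2, Unc5b and Ngef) and 6 lower (Unc5c, Flrt2, Flrt3, Srgap3, Arhgef11 and Tiam1), where 8.36% and 9.99% of all genes were. Srgap3, a GTPase activator that binds Robo receptors, was lower in colon CD81- FBs, trophocytes and SEMFs, with log2 ratios of -1.17, -1.62 and -1.73. The netrin receptor Unc5c stood at 325 CPM in colon SMCs and 134 CPM in small intestinal SMCs.

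The colon library held 1751 cells with UMIs of Y-linked genes but none of Xist and 2700 with the reverse, while Xist is not among the genes listed in the small intestinal table. Between these sets of colon cells 0 of 39 members in CD81- FBs, 0 of 23 in trophocytes and 0 of 42 in pooled fibroblasts differed by 2-fold or more, where 1.22%, 1.84% and 1.06% of all genes did. In SEMFs 3 of 21 did, against 1.16% of all genes, with log2 ratios of Y-linked over Xist cells of -1.33 for Efna5, -1.10 for Slit3 and 1.28 for Sema4d, and in LECs 1 of 10, against 3.35%, Robo2 at -1.26. In SMCs 0 of 5 did, against 2.46%, and in BECs no member reached 50 UMIs, where 8.94% of the genes that did were past 2-fold. Slit2 in trophocytes was at -0.48 and Efna5 in CD81- FBs at -0.59 on this scale. Tissue, library, digestion and animals cannot be told apart in the comparison of colon and small intestine.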

How the data were processed

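Per the labels' protocols, epithelium was stripped, tissue was digested with collagenase and dispase, sorted cells were loaded fresh, and 3' single-cell libraries were made with a 10x Genomics kit. The submitters' processing notes name Cell Ranger 7.1.0, Seurat 4 and mm10; whether intronic reads were counted and how strand was used are not given in the sources used here. The authors deposited raw UMI counts per gene and cell and a label per cell, with no unit other than counts used here; their natural log tables were not used.

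Counts were summed per library and label (SEMF spellings were joined, and colon capillary, arterial and venous labels pooled as BECs; doublets were not removed) and given as CPM. Levels have exact Poisson, shares Clopper-Pearson and log2 ratios exact conditional binomial 95% intervals; where a gene had 0 UMIs, a floor of 3 stood in for it. Intervals cover counting error only. No test was possible with 1 library per tissue. A call needed 2-fold and at least 50 UMIs. Shares were thinned to 1500 UMIs per cell; 0 colon cells and 4 to 55 small intestinal cells per type were shallower and left out. Members with at least 10 CPM in a type of either library could be named, as were those past 2-fold. Members and lists were chosen with earlier results of these data known. In Poisson counts simulated for CD81- FBs (13346 genes) the intervals held the true ratio for 95.5% of 200 changed genes, and for BECs (6400 genes) for 96.0%. Poisson counts are the case the intervals assume, so this checks their arithmetic only. Spread between cells or animals was not simulated. Promoter windows came from RefSeq (GRCm38.p6). Python 3.11.15, numpy 2.4.6, scipy 1.17.1, pandas 2.3.3 and matplotlib 3.10.9 were used.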

Additional observations from a re-analysis of the deposited data

Results flagged for a closer look

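For 7 guidance genes the log2 ratio of colon to small intestine was past 2-fold upwards in one cell type and past 2-fold downwards in another, and the difference between the types was not tested. The share of all genes with such opposite calls was not computed, so the count says nothing particular of the families. Sema3a was at 3.24 in CD81- FBs, 3.02 in SEMFs and 5.46 in SMCs, but at -1.44 in LECs and, with 0 colon UMIs, at -1.52 or lower in BECs. Plxna4 was at 2.16 in trophocytes and at -1.40, -1.96 and -2.69 in LECs, BECs and SMCs. Epha5 was at 3.04 in SEMFs (47 and 5 UMIs) and -4.54 in trophocytes (3 and 165 UMIs). Plxnd1 was at 1.20 in SEMFs and -1.37 in LECs. Sema6b was at 1.04 in trophocytes and -1.53 in BECs, on 5 colon UMIs.

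Robo1 was at 1.45 in LECs and -1.43 in trophocytes. Robo2 was at 1.45 in LECs and at -1.02, -1.11, -1.16 and -1.09 in CD81- FBs, trophocytes, SEMFs and SMCs. The LEC values of both move with the fibroblast matrix genes: Dcn was at 9.59% of its fibroblast level in colon LECs and 2.55% in small intestinal LECs, and its part was not tested.

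A few genes of these families were listed for 1 library alone and took no part in the comparisons. Efna3 had 20 UMIs in the colon, all in fibroblasts. In the small intestine the antisense RNA Plxna4os3 had 65 UMIs, of which 36 were in LECs and 12 in BECs, Plxnb3 had 17, of which 10 were in LECs, and Robo3 had 9, all in LECs. Depth at these counts is too low for any statement on other types.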

How the results depend on the processing

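No paired analysis was possible because each tissue has 1 library. Depth limits BECs (53 colon cells) and SMCs (125) most. Asking for 200 UMIs left 4 members higher in colon pooled fibroblasts and 1 each in CD81- FBs, SEMFs, trophocytes and LECs, and 3 lower in SEMFs, 3 in BECs and 4 in SMCs, with fewer genes tested. At 20 UMIs, 3 were higher in BECs and 2 in SMCs. With only the colon cells that had UMIs of Y-linked genes but none of Xist, 2 were higher in SEMFs, 1 in LECs and 1 in BECs. Relative to the median gene, 8 were higher in SEMFs and 3 in BECs. Weighting cells equally gave 1 higher in BECs, and leaving out the 5% of cells with the most UMIs gave 2 higher and 5 lower there. These counts have no share of all genes at the same setting beside them. They show only that the number of calls depends on the setting. At 50 CPM, 13 of 23 members had the same highest type. Of the 82 gene ratios past 2-fold, where a point value remained, its sign turned for Robo1 in LECs alone. It was -0.85 (95% interval -6.17 to 1.67) with Y-linked colon cells, on 1 UMI in 53 cells, and the cause was not tested. A kept sign is not a kept 2-fold size: in the same cells Plxnd1 and Robo2 in LECs were at -0.11 and 0.47. Sema5a and Slit2 in LECs and Sema3a and Slit2 in BECs then had 0 colon UMIs and no determined direction. Without the cells with the most UMIs, Robo1, Robo2, Sema3c and Sema5a in LECs rose to 2.92, 2.63, 4.51 and 2.74. In pooled fibroblasts with equal weights, Slit3 (-0.95), Ephb2 (-0.97), Epha3 (-0.69), Plxnd1 (0.87) and Sema3f (0.83) fell under 2-fold.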

Other observations

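Rnd1, a small GTPase that binds plexins, had 129.8 CPM in colon BECs and 609 CPM in small intestinal BECs. The netrin receptor Unc5b had 56.3 CPM in colon LECs and 140.0 CPM in small intestinal LECs, with a log2 ratio of -1.31 (95% interval -1.71 to -0.94). In pooled fibroblasts its ratio was 1.17 (95% interval 0.96 to 1.38), and the difference between the types was not tested. Ngef, an exchange factor that acts behind EphA receptors, had a pooled fibroblast ratio of 2.15 (95% interval 1.13 to 3.31). Its level was at most 1.10 CPM in any type. CD81- FBs held 27 UMIs in the colon and 0 in the small intestine. Trophocytes held 7 and 10, with a log2 ratio of 0.72 (95% interval -0.91 to 2.27).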
